A study of Arabidopsis thaliana with 20 samples.

Results

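LrgB (PLGG1, AT1G32080), AT5G17630 and AT5G59250 encode 3 carriers of the chloroplast's inner envelope membrane. They were chosen by name, as the genes for plastid envelope sugar and photorespiratory transporters that had an array probe of their own. Each had 1 such probe (198, 1298 and 809) of 692 probes tied to 1 gene and 3439 probes in all, and none of them was listed on a probe shared with other genes. The 20 samples were total RNA of wild-type Arabidopsis thaliana, ecotype Columbia 0: 10 from plants at a normal CO2 level (0d in the titles) and 10 from plants that spent their last 96 h in air with 0.003% CO2 by volume (mCO2_4d). The labels give no tissue, plant age, light regime or exact normal CO2 level, and no second genotype or treatment. They do not say which samples came from separate plants. The p-values below therefore reflect the spread between averaged pairs of columns, or between columns where these are kept separate, and part of it can be technical. The normal samples come from day 0 and the low CO2 samples from day 4, so the effect of the CO2 level and that of the added days cannot be told apart.

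The chloroplast envelope is the border across which fixed carbon is traded with the rest of the leaf cell. When CO2 is scarce, Rubisco takes up more oxygen relative to CO2, and the 2-carbon product is salvaged by photorespiration, a route through chloroplast, peroxisome and mitochondrion. LrgB moves glycolate out of the chloroplast at the start of that route and glycerate back in at its end. AT5G17630, a member of the family of plastid phosphate translocators, exchanges phosphate for triose phosphate or xylulose 5-phosphate, the latter an intermediate of the pentose phosphate pathways. AT5G59250 belongs to the major facilitator family of sugar carriers and is known as the plastid sugar transporter pSuT.

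Each value is a deposited array intensity on a linear scale. The columns differed in their median, from -1.59 to -0.77 on the log2 scale over all 20, so levels are given as log2 signal relative to the column's own median. In all 20 columns the deviation from the group mean was most like that of the neighbour in number (column 1 and column 2, column 3 and column 4, up to column 10), and neighbouring columns were averaged into 5 pairs per group. The totals of the normal CO2 columns ran from 3495 to 3749 and those of the low CO2 columns from 3604 to 3797. The 3 probes had a value above 0 in every column and none reached the array's ceiling, and all 3 passed the filter on missing values. The distance of a value from the array's background could not be judged, since no background signal was used here. RNA came from whole samples, in which fewer cells of a type and less RNA per cell cannot be told apart.

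The 3 genes differed in the direction of their means in low CO2. LrgB had a lower mean level, AT5G17630 a somewhat higher one, and AT5G59250 had the clearest difference, a 1.71-fold higher mean. No gene of the 3 passed limma's test over all 3277 probes tested at an adjusted p of 0.05, a call that 2.11% of the probes received (0.366% higher and 1.74% lower in low CO2). The ratio of LrgB to each of the other genes, in which a constant factor per column cancels, was lower in all 5 low CO2 pairs than in any normal CO2 pair. The genes were combined with their changes already known, and 10.5% of the ratios of LrgB and 21.4% of those of AT5G59250 over 626 other probes were separated between the groups as well.

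**Figure D1:**
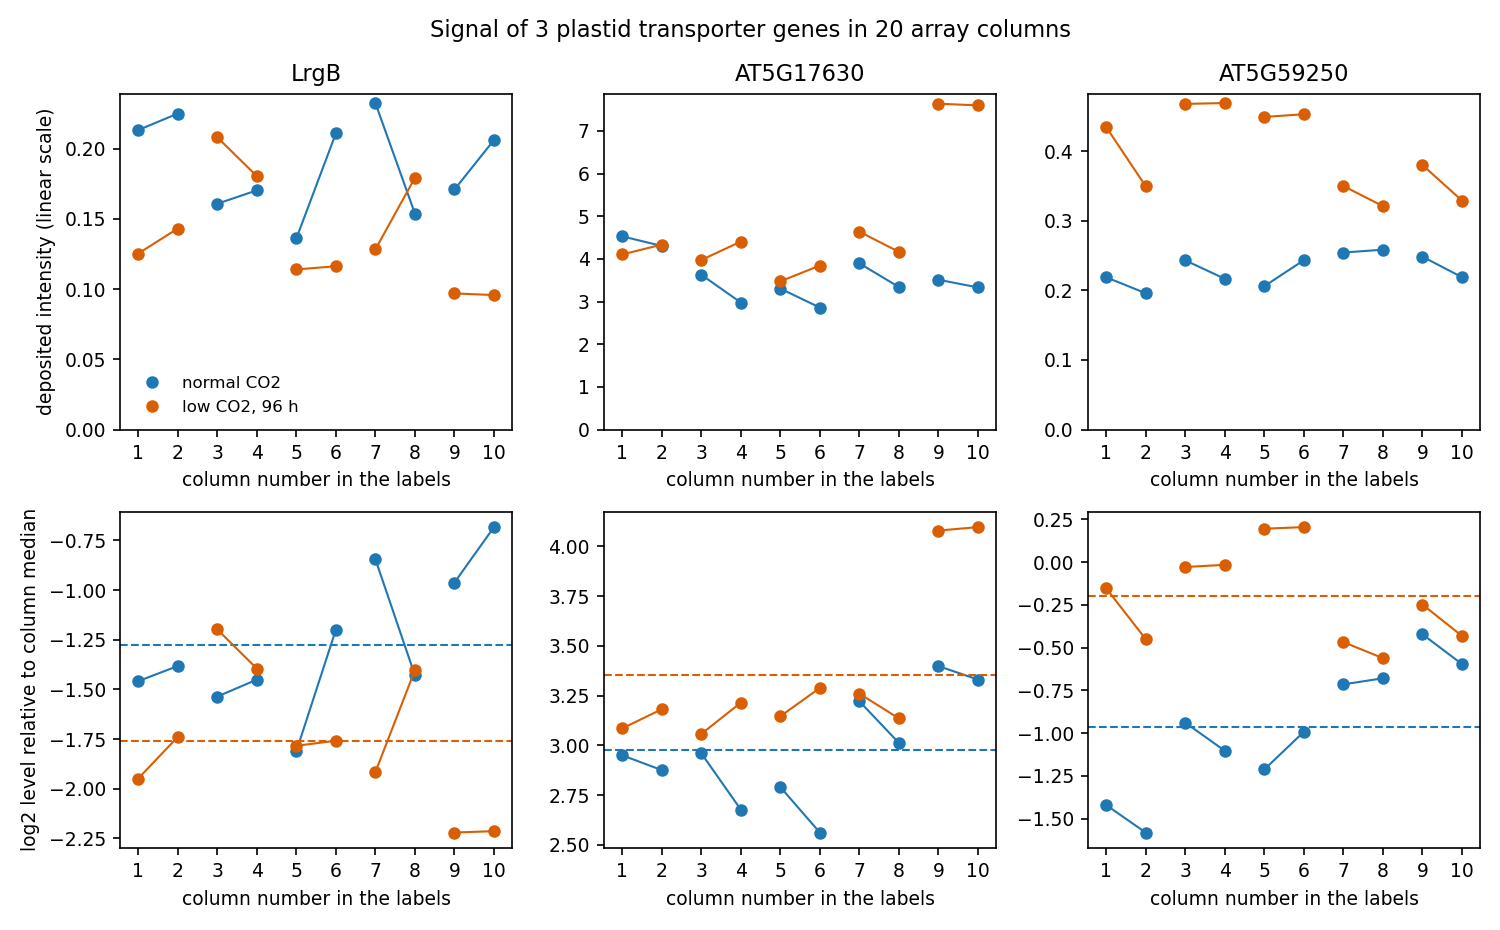
Signal of LrgB, AT5G17630 and AT5G59250 in 20 columns, by the column number in the labels. The upper row shows deposited intensities (linear scale) and the lower row log2 levels relative to the column median, with lines joining neighbouring columns and dashed lines at the group means. The intensities of AT5G59250 are separate between the groups (0.196 to 0.259 against 0.321 to 0.469), those of LrgB and AT5G17630 overlap, and AT5G17630 stands high in low CO2 columns 9 and 10.

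LrgB, the glycolate and glycerate carrier of photorespiration, was a dim probe. Its deposited intensity was 0.136 at the lowest, 0.189 at the median and 0.232 at the highest over the 10 normal CO2 columns, and 0.0957, 0.127 and 0.208 over the 10 low CO2 columns. The low CO2 values thus reached lower, but the ranges shared most of their span. The averaged log2 levels in normal CO2 were -1.42, -1.49, -1.51, -1.14 and -0.82 for columns 1 and 2, 3 and 4, 5 and 6, 7 and 8, and 9 and 10. In low CO2 they were, in the same order, -1.84, -1.30, -1.77, -1.66 and -2.22. Columns 3 and 4 were the exception in low CO2: the other 4 pairs were lower than any normal CO2 pair, while that pair lay within the normal range. The group means were -1.28 ± 0.29 and -1.76 ± 0.33 (SD, n = 5 each), a log2 change of -0.48 ± 0.23 (SE) with a 95% interval of -0.98 to 0.016. Limma's adjusted p was 0.312, and 22.8% of all tested probes had a change of at least this size. As a fold, the interval reaches from 0.507 to 1.01 times the normal level. Without low CO2 columns 9 and 10, the lowest pair, the log2 change was -0.37 ± 0.22 (SE, limma's adjusted p = 0.513). Neighbouring columns of this probe differed by up to 0.61 in normal CO2 (columns 5 and 6) and up to 0.51 in low CO2 (columns 7 and 8), differences as large as the change itself.

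AT5G17630, the xylulose 5-phosphate carrier, gave a strong signal. Its intensity ran from 2.86 through a median of 3.43 to 4.53 in normal CO2 and from 3.47 through 4.25 to 7.64 in low CO2. Most of the upward reach in low CO2 came from columns 9 and 10, which held 7.64 and 7.60, while the highest of the other 8 was 4.64. The averaged log2 levels were 2.91, 2.82, 2.68, 3.12 and 3.36 in normal CO2 and 3.13, 3.14, 3.22, 3.20 and 4.09 in low CO2, by increasing column number. The pair of normal CO2 columns 9 and 10 was higher than 4 of the 5 low CO2 pairs, so the groups overlapped through it, and the other 4 normal pairs lay below every low CO2 pair. The means were 2.98 ± 0.27 and 3.35 ± 0.41 (SD, n = 5 each), and the log2 change was 0.38 ± 0.22 (SE, 95% interval -0.094 to 0.85, limma's adjusted p = 0.403). Without low CO2 columns 9 and 10 the change was 0.19 ± 0.18 (SE, limma's adjusted p = 0.696). A change at least as large as the 0.38 over all 5 pairs was found in 32.8% of the tested probes.

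AT5G59250 is the plastid sugar transporter. Its deposited intensity was 0.196 at the lowest, 0.231 at the median and 0.259 at the highest in normal CO2, and 0.321, 0.408 and 0.469 in low CO2. All 10 low CO2 columns lay above all 10 normal CO2 columns as deposited. Of the 2941 tested probes with a value above 0 in every column, 2.72% had groups that did not overlap in this way, 0.544% (16 probes) higher and 2.18% lower in low CO2. This separation was looked for after the values were seen, and it uses intensities before the columns are brought to a common scale.

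On the log2 scale relative to the column median, the pairs of AT5G59250 were at -1.50, -1.02, -1.10, -0.70 and -0.51 in normal CO2 and at -0.30, -0.022, 0.20, -0.51 and -0.34 in low CO2. Here the groups touched: normal CO2 columns 9 and 10 (-0.509) lay just above low CO2 columns 7 and 8 (-0.514), and 4 of 5 low CO2 pairs exceeded all normal CO2 pairs. Over all probes, 4.94% had pairs that did not overlap between the groups, 1.62% higher and 3.33% lower in low CO2, and AT5G59250 was not among these. The share of probes with 4 of 5 pairs apart, as here and in LrgB and AT5G17630, was not computed. The means of AT5G59250 were -0.97 ± 0.38 and -0.20 ± 0.28 (SD, n = 5 each). The log2 change was 0.77 ± 0.22 (SE), with a 95% interval of 0.31 to 1.23, or 1.24-fold to 2.35-fold, unadjusted p = 0.00289 and adjusted p = 0.0877 in limma. By p it stood at rank 107 of 3277, and 8.48% of the probes had a change of at least its size. With the 20 columns kept and neighbouring numbers taken as a random block, it passed (limma's adjusted p = 0.0166), in a fit that called 5.68% of the probes, 2.32% higher and 3.36% lower. That fit uses 1 correlation, 0.748, for all probes, and its p-values count 20 columns rather than averaged pairs. The SE of AT5G59250 was 0.19 there, beside 0.22 with averaged pairs. Entering the 20 columns separately also gave a call (limma's adjusted p = 0.0011) in a fit which called 18% of the probes, 9.03% higher and 8.94% lower, but counts neighbouring columns as independent.

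**Figure D2:**
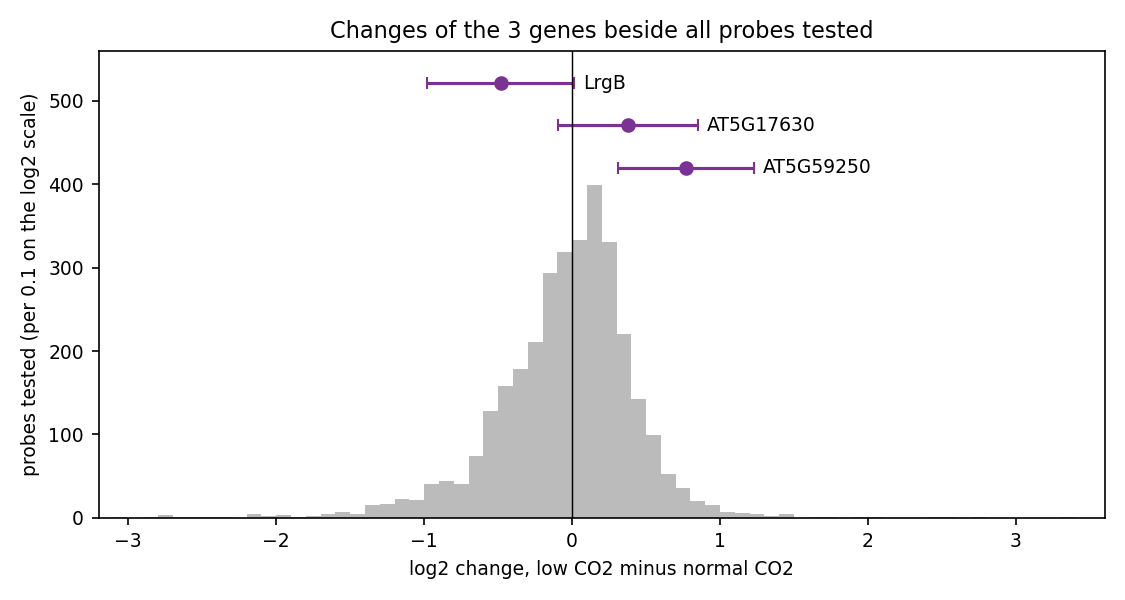
Log2 changes (low CO2 minus normal CO2) of LrgB, AT5G17630 and AT5G59250, as points with 95% intervals, over a histogram of the changes of all 3277 probes tested. The interval of AT5G59250, 0.31 to 1.23, lies to the right of 0, and those of the other genes include 0.

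The precision of the 3 measurements was ordinary for this array. Their standard errors, 0.23, 0.22 and 0.22, stood beside a median of 0.23 over all probes tested, and the median change of all probes was 0.011. In normal CO2, the highest averaged level of each of the 3 genes came from columns 9 and 10, which also had the lowest column medians of their group (-1.59 in both, against -1.27 for the next lowest). Without these columns the log2 changes were -0.37 for LrgB, 0.47 for AT5G17630 and 0.88 for AT5G59250, so that LrgB came closer to 0 and the other genes moved further from it. With no centring of the columns the changes were -0.46, 0.39 and 0.79. The direction of each gene held in every setting in which it was tested.

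**Figure D3:**
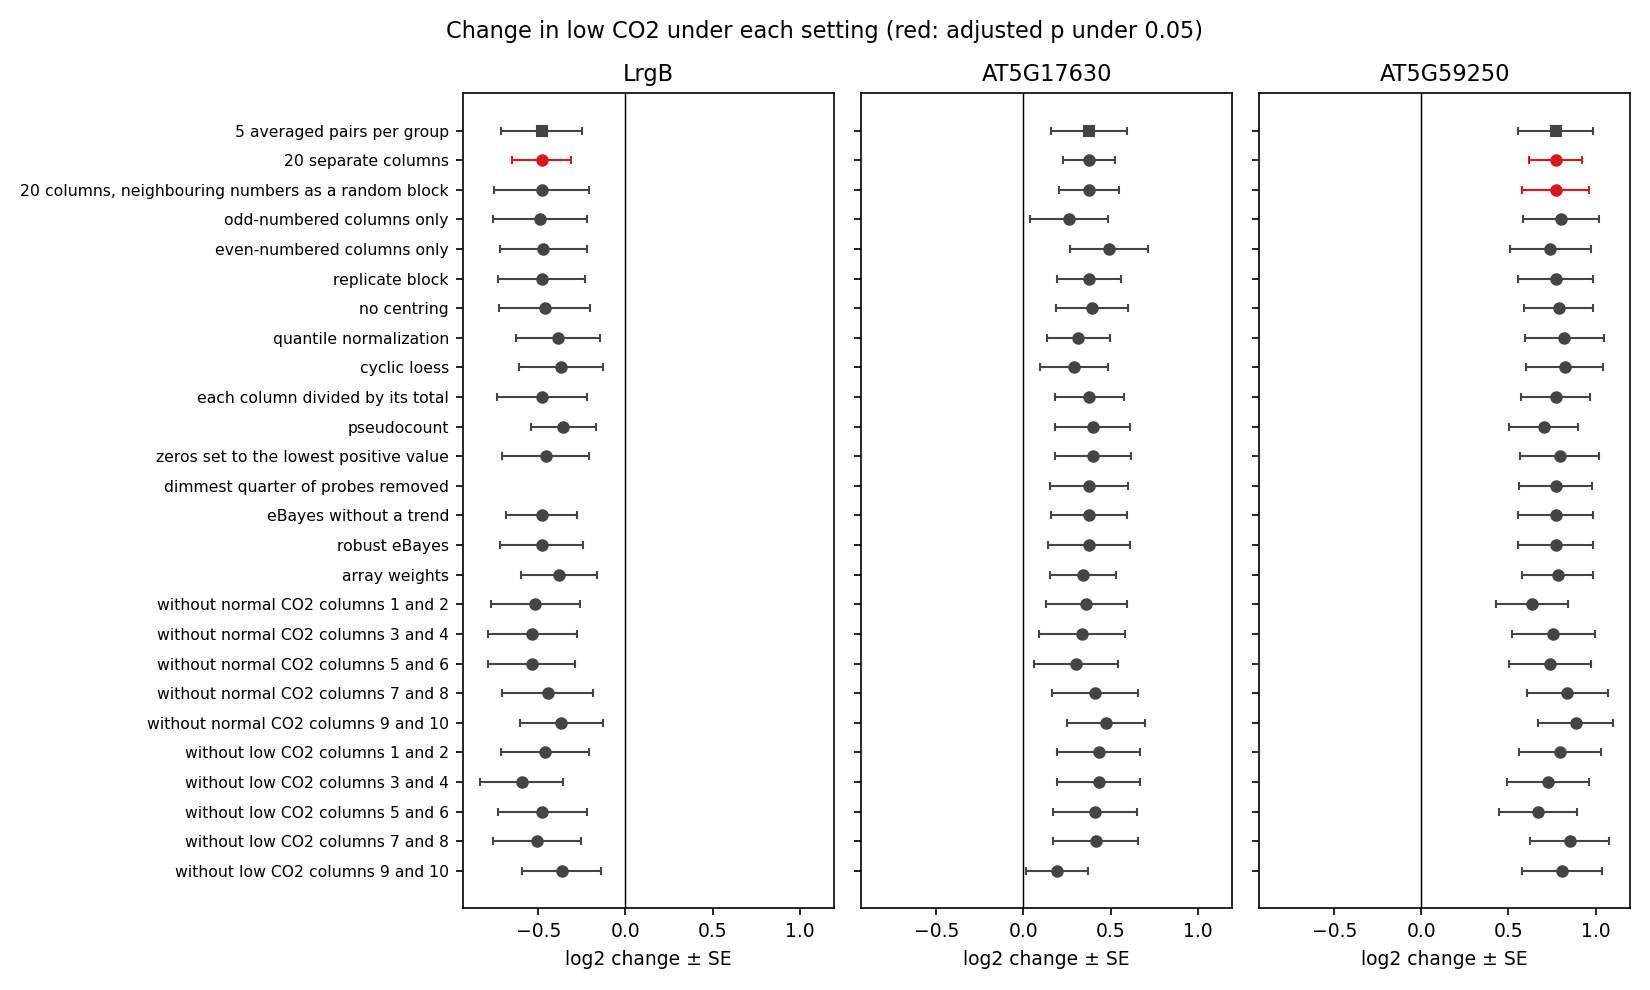
Log2 change ± SE of each gene (one panel a gene) with 5 averaged pairs per group (square) and under each other way of treating the columns, with red where the adjusted p was under 0.05. All points of LrgB lie below 0 and all points of AT5G17630 and AT5G59250 above it. Red points are 20 separate columns for LrgB, and 20 separate columns and the random block for AT5G59250.

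Because a constant factor applied to a column cancels between its probes, the 3 genes were also compared with each other inside each pair of columns. A log2 ratio of 2 probes shows unequal change and says nothing on which of them moved, and its level has no meaning as a ratio of transcripts. 3 ratios were computed, each with an exact two-sided permutation test over all splits of the 10 averaged pairs into 5 and 5, whose smallest possible p is 0.00794. The 3 genes were put together with their changes already known, so these p-values are not independent evidence.

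As averaged pairs, LrgB over AT5G17630 varied little in normal CO2, at -4.33, -4.31, -4.18, -4.25 and -4.19. The low CO2 pairs were lower, at -4.98, -4.43, -4.99, -4.86 and -6.31. Single columns varied more: in normal CO2, LrgB was at -1.81 and AT5G17630 at 2.79 in column 5, against -1.20 and 2.56 in column 6. In low CO2 column 3, LrgB was at -1.20 and AT5G17630 at 3.06, so the ratios of single columns overlapped between the groups. All 5 low CO2 pairs lay below all normal CO2 pairs, as in 10.4% of the ratios of LrgB over other probes tied to 1 gene. The means were -4.25 ± 0.070 and -5.11 ± 0.70 (SD, n = 5 each), a difference of -0.86 ± 0.32 (SE), with an exact permutation p of 0.00794, and 0.0119 after Benjamini-Hochberg adjustment over the 3 ratios. Low CO2 columns 9 and 10 held both the lowest LrgB and the highest AT5G17630 level of the group. Without them the difference was -0.56 ± 0.13 (SE), and the adjusted exact permutation p was 0.00794. Quantile normalization, which is not a constant factor per column, gave -0.70 ± 0.34 (SE) and an adjusted exact permutation p of 0.107, and odd-numbered columns alone gave -0.75 ± 0.34 (SE) and 0.0595.

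LrgB over AT5G59250 gave the larger separation, with the photorespiratory carrier lower relative to the sugar carrier in low CO2. The log2 ratios were 0.081, -0.47, -0.40, -0.44 and -0.31 in normal CO2 and -1.54, -1.27, -1.97, -1.14 and -1.88 in low CO2. The groups did not overlap. The means of -0.31 ± 0.23 and -1.56 ± 0.36 (SD, n = 5 each) differed by -1.25 ± 0.19 (SE), with an exact permutation p of 0.00794 (0.0119 adjusted over the 3 ratios). As a background, LrgB was set over each of the 626 other probes that were tied to 1 gene and had a value in all 10 averaged pairs, and in 10.5% of these ratios the groups did not overlap, with LrgB relatively lower in low CO2 in 10.4%. For AT5G59250 against the same kind of probes the share was 21.4%, and for AT5G17630 it was 4.47%.

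AT5G17630 over AT5G59250 was not separated. The log2 ratios were 4.41, 3.84, 3.78, 3.81 and 3.87 in normal CO2 and 3.43, 3.16, 3.02, 3.71 and 4.43 in low CO2. 4 low CO2 pairs were lower than any normal CO2 pair, and the pair of columns 9 and 10 was higher than all of them. The difference was -0.39 ± 0.28 (SE, n = 5 pairs per group), with an exact permutation p of 0.175 (0.175 adjusted over the 3 ratios). Without low CO2 columns 9 and 10 the difference was -0.61 ± 0.19 (SE), with an adjusted exact permutation p of 0.00794. That pair was the only low CO2 pair not below all normal CO2 pairs. Its removal therefore separates the groups by construction, and the p without it gives no added support. Over all pairs this ratio was not called.

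**Figure D4:**
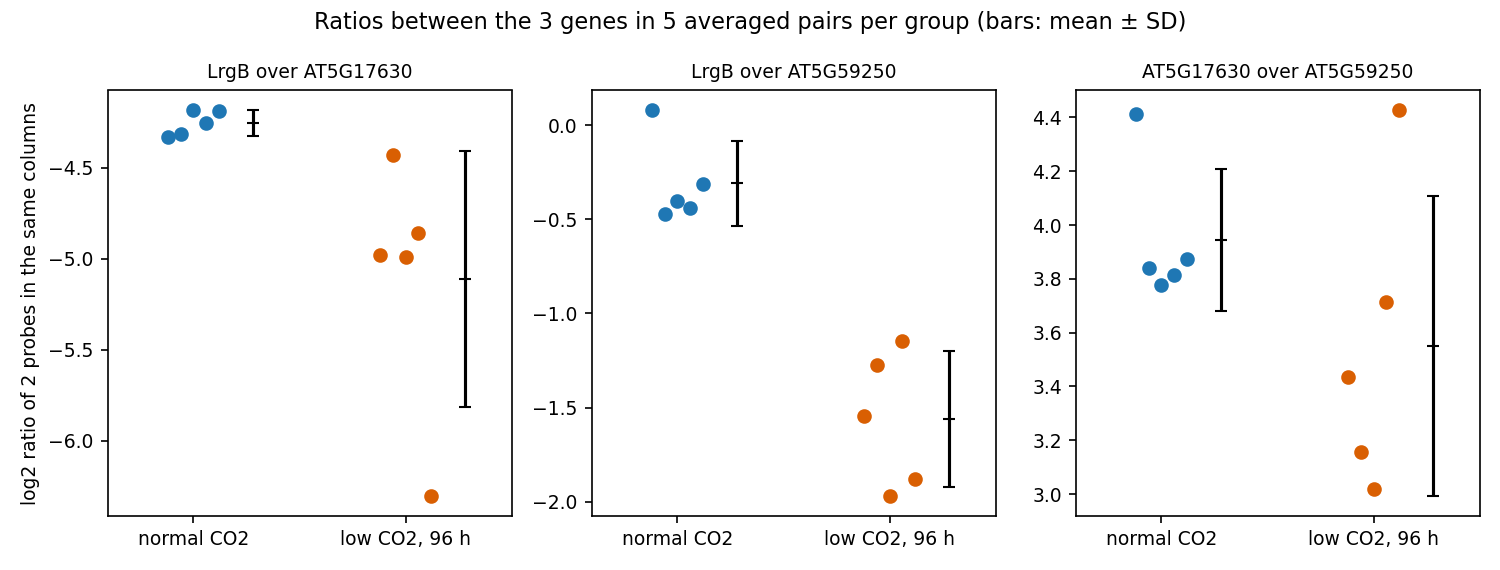
Log2 ratios between the 3 genes within averaged pairs of columns (points, 5 per group), with the mean ± SD beside each group. The groups are apart for LrgB over AT5G17630 and LrgB over AT5G59250 and overlap for AT5G17630 over AT5G59250, where low CO2 columns 9 and 10 are at 4.43.

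Across the 10 averaged pairs the 3 genes did not follow one common pattern. As a description, with pairs that share their columns and their scaling, Pearson's r was -0.43 (Spearman's rho -0.22) between LrgB and AT5G17630, -0.25 (rho -0.32) between LrgB and AT5G59250 and 0.51 (rho 0.70) between AT5G17630 and AT5G59250. Taken as deviations from the group means, r was -0.14, 0.57 and 0.19. The deviations of LrgB and AT5G59250 thus had a positive r, while their group means went opposite ways. In normal CO2 both genes were highest in columns 9 and 10, which had the lowest column medians of that group. Each level has its column's median subtracted, and whether this gives the shared variation was not tested.

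The genes most like each carrier were searched among the same 626 probes, over the 10 averaged pairs. For LrgB these were DI21, known as a drought-induced gene (r = 0.93, Spearman's rho 0.85), AT1G30700 (r = 0.89, rho 0.76) and AT4G27700 (r = 0.88, rho 0.75). Their log2 changes were -0.96 ± 0.28, -0.41 ± 0.16 and -0.43 ± 0.22 (SE). Without low CO2 columns 9 and 10, where LrgB was lowest, they were -0.75, -0.34 and -0.26. For AT5G17630 they were AT3G56290 (r = 0.96, Spearman's rho 0.94), AT5G66530 (r = 0.95, rho 0.89) and AT1G50880 (r = 0.91, rho 0.75), with log2 changes of 0.41 ± 0.21, 0.34 ± 0.18 and 0.23 ± 0.18 (SE). Without low CO2 columns 9 and 10, where AT5G17630 stood high, the changes of AT3G56290, AT5G66530 and AT1G50880 were 0.23, 0.23 and 0.14. For AT5G59250 they were AT4G09620 (r = 0.96, rho 0.96), AT1G31790 (r = 0.87, rho 0.85) and AT4G26370 (r = 0.86, rho 0.78). These had log2 changes of 0.87 ± 0.24, 0.23 ± 0.14 and 0.30 ± 0.15 (SE). Taken as deviations from the group means, r with AT5G59250 was 0.91, 0.76 and 0.76. None of the 9 passed limma's test with averaged pairs, and the smallest adjusted p was 0.0835, for AT4G09620. These are the top of 626 correlations each, of which the 95th percentile was 0.72 for LrgB, 0.73 for AT5G17630 and 0.64 for AT5G59250.

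Few other genes of these routes could be read. Of 16 envelope carriers of carbon compounds listed, including the triose phosphate, phosphoenolpyruvate, glucose 6-phosphate, glucose, maltose and dicarboxylate translocators, only these 3 genes had a probe of their own. The log2 change was below 0 in 1 of 3, beside 48.7% of all probes tested, and 0 were called. Their median change, 0.38, is the value of AT5G17630 alone and does not describe envelope carriers as a class. Of 10 envelope carriers of ions, nucleotides and fatty acids none had a probe of its own, and 2 were listed on shared probes only. Of 25 photorespiration genes LrgB was the 1 with its own probe, so the enzymes that make and use its substrates are not analysed here. Of 16 genes of pentose phosphate metabolism, which makes and uses xylulose 5-phosphate, 3 had their own probe and 2 could be tested, with 0 called in either direction. SBPASE, sedoheptulose bisphosphatase of the Calvin cycle, had mean log2 levels of 0.30 ± 0.34 and -0.13 ± 0.22 (SD, n = 5 each) for normal and low CO2, a change of -0.43 ± 0.19 (SE, limma's adjusted p = 0.267). PRK, phosphoribulokinase, was at 1.46 ± 0.25 and 1.21 ± 0.40 (SD, n = 5 each), a change of -0.25 ± 0.20 (SE, limma's adjusted p = 0.555). The 1 untested gene, the transaldolase AT1G12230, was listed at 0 in 16 of 20 columns. None of 16 genes of starch and sucrose turnover and none of 9 root and seed markers had its own probe, so the make-up of the tissue could not be checked.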

How the data were processed

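Total RNA of 20 samples was measured on an expression array. The values are the authors' deposited intensities, linear and 1 for each probe in each sample. No label or file header gives the scaling, background correction or genome build, and coordinates are left out. Probes were named from the platform annotation, and 690 of 692 probes with 1 gene matched the RefSeq table (TAIR10.1). The precision is limited by the number of averaged pairs, 5 per group, and the number of separate plants is not given.

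A value of 0 counted as missing. All others were taken to log2, centred on the column median and averaged over neighbouring numbers. A probe was tested if at least 3 averaged pairs per group held a value, with limma 3.58.1 in R 4.3.3 (eBayes with a trend, Benjamini-Hochberg adjustment over all 3277). Ratios between the genes were tested with exact permutation over averaged pairs. The code was tested on simulated data. There, 64 of 100 changes of 1 log2 unit and 94 of 100 changes of 2 units were called, and 6 of 3077 probes without a change. Changes as small as those of the 3 genes were not simulated. Alternatives changed the averaging, scaling, zeros, filter and variance model, or left out 1 averaged pair.

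The genes, lists, averaging and tests were chosen with earlier results of these data known. The text names the 3 genes, every listed gene with its own probe, and the 3 genes most correlated with each. No sequences are printed. Data from other conditions of the study are not used here.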

Additional observations from a re-analysis of the deposited data

Results flagged for a closer look

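In 3 of 34 groups of 5 averaged pairs examined (named genes and ratios), 1 pair lay far from the others by Dixon's criterion, where chance gives about 1.7. The log2 level of AT5G17630 was 4.09 in low CO2 columns 9 and 10, against 3.22 for the next highest pair and a group mean of 3.35 ± 0.41 (SD, n = 5). Both single columns were high, at 4.08 and 4.10. The other 2 groups share normal CO2 columns 1 and 2, where AT5G59250 was lowest: the log2 ratio of LrgB over AT5G59250 was 0.081 there, against -0.31 for the next highest pair, and that of AT5G17630 over AT5G59250 was 4.41, against 3.87. Without these columns the difference in the ratio of LrgB over AT5G59250 was -1.15, with an adjusted exact permutation p of 0.0238, and the log2 change of AT5G59250 was 0.64 ± 0.21 (SE, limma's adjusted p = 0.107).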

How the results depend on the processing

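The cause of these moves was not tested unless the setting's construction shows it. Over its alternatives the log2 change ran from -0.60 to -0.36 for LrgB (24 settings, since the removal of the dimmest 25% of probes removed it), from 0.19 to 0.49 for AT5G17630 (25 settings) and from 0.64 to 0.88 for AT5G59250 (25 settings). None of these reversed. LrgB (-0.48, limma's adjusted p = 0.049) and AT5G59250 (0.77, adjusted p = 0.0011) passed with 20 separate columns, and AT5G59250 (0.77, adjusted p = 0.0166) with the random block, at a correlation of 0.748. Both fits count 20 columns rather than averaged pairs. Other scalings left AT5G59250 just short, with limma's adjusted p of 0.0504 for no centring, 0.0531 for division by the column total, 0.0597 for cyclic loess and 0.0663 for quantile normalization. It was further from the threshold with even-numbered columns only (limma's adjusted p = 0.129), zeros at the lowest positive value (0.121) and eBayes without a trend (0.119). Leaving out 1 averaged pair gave changes of -0.60 to -0.37, 0.19 to 0.47 and 0.64 to 0.88, and no call. For AT5G59250, limma's adjusted p then ran from 0.0756 to 0.219.

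LrgB over AT5G17630 (-0.86) missed the threshold with odd-numbered columns only (-0.75, adjusted exact permutation p = 0.0595) and quantile normalization (-0.70, adjusted exact permutation p = 0.107). Leaving out 1 pair gave -1.03 to -0.56 for it, -1.36 to -1.15 for LrgB over AT5G59250 and -0.61 to -0.26 for AT5G17630 over AT5G59250. The count of 69 called probes became 589 with 20 separate columns, 186 with the random block, 40 with odd-numbered columns, 30 with zeros at the lowest positive value, 34 without a trend, 20 at a threshold of 0.01, and 25 to 123 without 1 pair. The 123 came from leaving out columns 1 and 2 of normal CO2, and counts of 25 to 37 from leaving out any other normal CO2 pair, columns 3 and 4 of low CO2 or columns 9 and 10 of low CO2.

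Averaged pairs of the same number correlated across the groups at -0.018 to 0.40 in their deviations, above 0.1 in 3 of 5. These 3 pairs correlated best with their own number, and the other pairs did not. Whether the numbers pair the samples was thus undecided, and the main test did not use them so. The replicate block changed no call of a gene and called 89 probes. For the ratios, its exact sign-flip test of 5 differences cannot pass after adjustment: -0.86 and -1.25 had an adjusted p of 0.0938.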

Other observations

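AT4G09620, the gene most like AT5G59250, did not pass with averaged pairs (limma's adjusted p = 0.0835) but passed in 6 of 25 alternatives: 20 separate columns, the random block, no centring, quantile normalization, cyclic loess and division by the column total. Over all probes, 20 separate columns called 18% and the random block 5.68%. No centring called 77 probes, quantile normalization 103, cyclic loess 100 and division by the column total 81. The log2 change of AT4G09620 was at least 0.72 in all 25. Over the 11 named genes other than the 3 carriers, 263 refits kept the side of the threshold, 12 gained a call and 0 reversed. Of these 12 gains, 6 were those of AT4G09620, and all came in the settings just named.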
